A study of Rattus norvegicus with 9 samples.

Results

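Cells carrying both NG2 and A2B5 (called NG2/A2B5) were set against cells carrying NG2 only (called NG2), both sorted from cultures of oligodendrocyte progenitors isolated from newborn rats. The comparison rests on 6 of the study's 9 arrays, which were taken by their titles: NG2/A2B5 I, II and III and NG2 I, II and III. The other 3 arrays hold cells positive for the antigen O4 and negative for NG2 (called O4). They entered the fits to estimate the spread, and their values stand beside those of the compared cells. The labels give no strain, sex, genotype or treatment for any group. The design text speaks of 3 cultures, but no label links a numeral to a culture. The p-values therefore cover only the spread from array to array, which may be technical. Each library was made from sorted cells with 2 rounds of in vitro transcription, and the array reads the intensity of a probe on a linear scale.

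NG2 is the chondroitin sulfate proteoglycan encoded by Cspg4 and marks oligodendrocyte progenitors, the dividing glial cells that later form myelin. A2B5 is an antibody that recognises gangliosides, sialic acid lipids of the surface of early glial progenitors and some neurons. The antigen is therefore made by enzymes, among them the sialyltransferase St8sia1, and has no transcript of its own. The study's title concerns refilins, small proteins that bind the actin cross-linkers called filamins.

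Of 12167 genes with a value, 9023 (74.2%) were well detected, meaning a mean intensity over 0.5 across the 9 arrays. The array medians were 1.05 to 1.07. Markers of the oligodendrocyte lineage were well detected, but not all defining ones were. Mean intensities over the 9 arrays were 137 for Cspg4, 37.2 for the lineage factor Sox10, 247 for Bcas1, a gene of differentiating oligodendrocytes, and 12.8 for the progenitor phosphatase Ptprz1. The progenitor receptor Pdgfra lay near the detection limit at 0.522, as did the lineage factor Olig2 at 0.544, and the myelin gene Mbp at 0.233 was below it. Other genes of maturing oligodendrocytes varied, with Cnp at 203, Mag at 12.8, Mobp at 0.762 and Mog at 0.391. Of 33 myelin genes 22 were well detected. Of the astrocyte genes Gfap, at 0.341, and Slc1a2, at 0.276, were not well detected. The glutamate transporter Slc1a3, which progenitors are also known to express, read 66.4. Aqp4 read 1.3, while Aldh1l1 at 0.596 and Gja1 at 0.569 lay near the detection limit. Of 15 astrocyte markers 7 were well detected. Of 16 microglia markers 13 were not well detected, Cx3cr1, Ptprc and the 3 C1q chains among them, and the other 3 were Cd68 at 5.3, Itgam at 5.26 and Laptm5 at 0.594.

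Neither the antigen that both populations share nor the ganglioside enzymes examined here gave a call. These enzymes may not cover all that make the A2B5 antigen. Cspg4 read 104, 127 and 185 in NG2/A2B5 arrays I, II and III and 135, 146 and 166 in the NG2 arrays, so the groups overlapped. The log2 difference, NG2/A2B5 minus NG2 here and throughout, was -0.14 (95% interval -0.76 to 0.48, n = 3 and 3). St8sia1, which makes the ganglioside GD3 and related b-series gangliosides, read 2.65, 3.15 and 2.21 in NG2/A2B5 and 2.68, 1.75 and 1.64 in NG2. These groups also overlapped, with a log2 difference of 0.42. The list called ganglioside synthesis also holds genes of ganglioside breakdown (Glb1, Gm2a, Hexa, Neu1 and Neu3). Of its 16 well-detected members, 8 were higher and 8 lower in the mean, with a median log2 difference of 0.01. These figures therefore mix synthesis with breakdown. None of the members was called by either fit described next.

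Few genes separated the 2 populations under these tests. The fit of all 9 arrays without a block called 0 of 12166 genes higher (0%) and 0 lower (0%) at an adjusted p under 0.05 (limma, Benjamini-Hochberg), while 547 genes had an unadjusted p under 0.05 and the lowest adjusted p was 0.748. Arrays with the same numeral resembled each other across populations. After the population means were removed, NG2/A2B5 and NG2 arrays of the same numeral correlated at 0.285 to 0.559 over 8911 genes, and those of different numerals at -0.435 to -0.0073. Since the deviations within a population cancel out, positive values for the same numeral push those for different numerals below 0. The negative range is therefore not separate evidence of pairing. A second fit took the numeral as a block and used trend and robust variance estimates (called the paired fit). It called 94 of 12165 genes (0.773%), of which 67 were higher in NG2/A2B5 (0.551%) and 27 lower (0.222%). All 94 were well detected, which is 1.04% of 9022 well-detected genes. Without the block, or with the block but neither trend nor robust estimates, 0 genes were called in each direction. The latter fit had 1057 genes at an unadjusted p under 0.05, and with the trend but no robust estimates 77 genes were called higher and 26 lower.

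**Figure D1:**
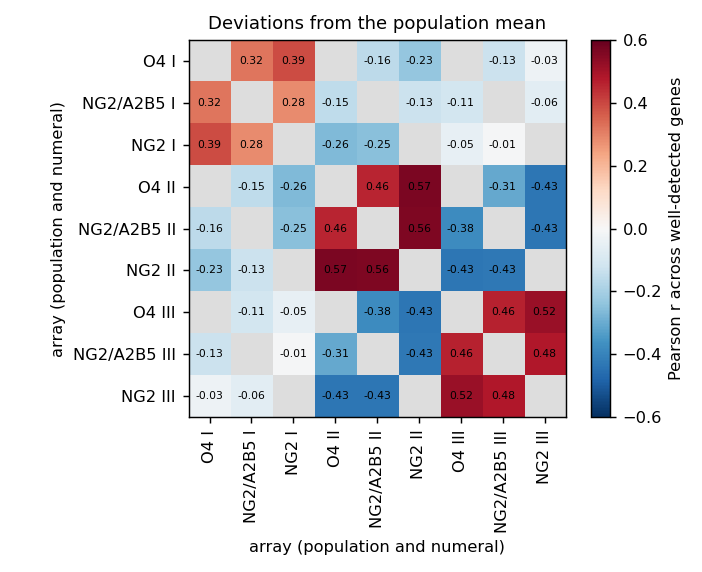
Pearson correlation of the arrays' deviations from their population mean over well-detected genes, for each pair of arrays from different populations, with arrays ordered by numeral on both axes. Every same-numeral pair, 0.285 to 0.566, lies above every pair of different numerals, -0.435 to -0.0073. The negative values follow in part from removing the population means.

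The paired calls were also sensitive to single arrays and to how low values were treated. Leaving out 1 array at a time gave 10 to 99 genes called higher and 8 to 47 called lower. On the higher side 10 genes were called without NG2/A2B5 II, 19 without NG2/A2B5 III, and 23 without NG2 II or without NG2 III. On the lower side 47 were called without NG2/A2B5 I, 9 without NG2/A2B5 II, 11 without NG2/A2B5 III, 17 without NG2 I, 8 without NG2 II and 16 without NG2 III. Setting every value below its array's 25th percentile to that percentile left 5 calls, Capg, Fxyd1 and Tmem14a higher and Cbln1 and Plod1 lower. In all 9 refits that left out 1 array, 14 genes were called: 8 higher (Fxyd1, Capg, Cisd3, Tmem14a, Plcd3, Abhd1, Emid1 and Pcsk4) and 6 lower (Plod1, Cd302, Cbln1, Ebf3, Afap1l1 and Eif4e3). None of the 14 passed in the fit without a block, where their adjusted p lay at 0.748 or above. NG2 I was the highest of the NG2 arrays in 40 of the 67 genes called higher and the lowest in 6, and it was the lowest in 13 of the 27 called lower and the highest in 5. Over the 9019 well-detected genes with no value at or below 0 on the 6 arrays compared, NG2 I was the highest in 17.1% and the lowest in 33.2%. Below, adjusted p-values are those of the paired fit in limma unless another fit is named, intervals are its 95% intervals, and intensities are given in the order I, II, III.

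**Figure D2:**
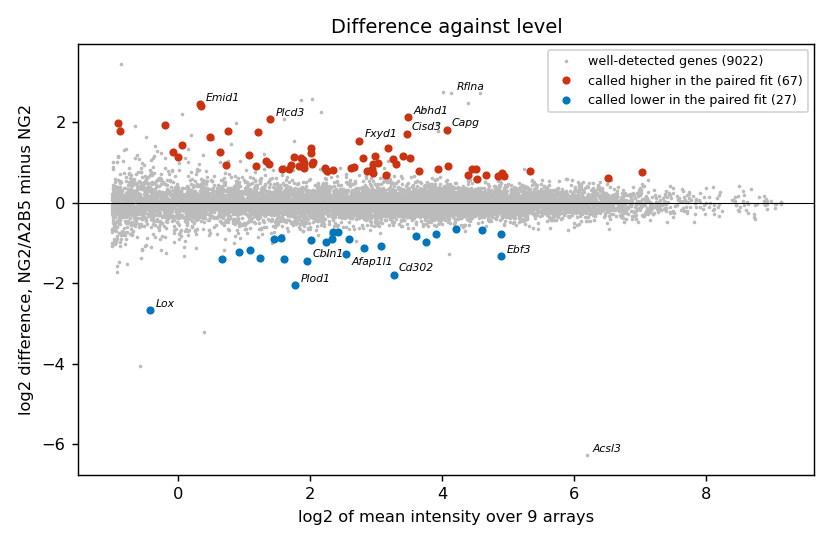
Log2 difference, NG2/A2B5 minus NG2, against the log2 mean intensity over 9 arrays for 9022 well-detected genes, with the 67 genes called higher and 27 called lower by the paired fit in colour. Rflna and Acsl3 are labelled but were not called, and the lowest point, Acsl3, rests on 1 NG2/A2B5 value at or below 0.

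Fxyd1, Capg and Cisd3 had the smallest p-values on the higher side. Fxyd1 encodes phospholemman, a small membrane protein that regulates the sodium pump. It read 12.4, 6.62 and 8.45 in NG2/A2B5 and 4.14, 2.41 and 2.84 in NG2. Every NG2/A2B5 array was above every NG2 array, and the difference was nearly the same in the 3 numerals, 1.58, 1.46 and 1.57. The mean log2 difference was 1.54 (interval 1.23 to 1.85), with an adjusted p of 0.00015. Fxyd1 belongs to a list of sodium pump subunits and FXYD regulators of which 8 of 9 well-detected members were higher in the mean, with a median log2 difference of 0.25 against -0.01 over all well-detected genes. Fxyd1 was the only member of that list called by the paired fit. Bulk arrays cannot tell more cells with a transcript from more transcript in each cell.

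Capg, which caps the barbed ends of actin filaments, read 36.3, 12.7 and 25.2 in NG2/A2B5 and 16.1, 3.2 and 5.31 in NG2. The groups overlapped, since NG2 I was above NG2/A2B5 II, but NG2/A2B5 was higher within each numeral, by 1.17, 1.99 and 2.25. The log2 difference was 1.80 (interval 1.42 to 2.18), with an adjusted p of 0.00015. Mical1, a monooxygenase that oxidises actin and so takes filaments apart, was called higher as well: it read 0.826, 1.68 and 1.41 in NG2/A2B5 and 0.347, 0.212 and 0.478 in NG2, near the detection limit, with a log2 difference of 1.93 and an adjusted p of 0.0145. Afap1l1, an actin filament-associated adaptor, went the other way, with 3.65, 3.55 and 3.01 in NG2/A2B5 and 6.43, 11.1 and 7.79 in NG2. Its groups did not overlap, and the log2 difference was -1.28 (interval -1.66 to -0.90, adjusted p 0.00347). The separate list of 50 well-detected actin filament regulators, which holds none of these 3 genes, had a median log2 difference of -0.01, 24 members higher and 26 lower in the mean, and no call.

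Cisd3, an iron-sulfur protein of the mitochondrion, read 28.9, 12.2 and 11.7 in NG2/A2B5 and 11.5, 2.95 and 3.5 in NG2. The lowest NG2/A2B5 array lay just above the highest NG2 array. The log2 difference was 1.70 (interval 1.31 to 2.10) and the adjusted p 0.000382. Its neighbour on the chromosome, Pcgf2, a Polycomb group protein, was also called higher: it read 10.4, 9.3 and 8.79 in NG2/A2B5 and 5.49, 4.88 and 4.21 in NG2, a log2 difference of 0.97 (adjusted p 0.00438). No protein-coding gene lies between Cisd3 and Pcgf2 in the RefSeq annotation, and the genes do not overlap. Cox6b2, a subunit of cytochrome c oxidase best known from testis, was called higher at 36.2, 20.3 and 28.2 against 18.6, 9.75 and 19.7 (log2 difference 0.84, adjusted p 0.0112). It was the only call among 64 well-detected respiratory genes, of which 30 were higher and 34 lower in the mean with a median of -0.02.

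Abhd1, a protein of the alpha/beta hydrolase family, had 11.2, 19.8 and 26.5 in NG2/A2B5 and 5.35, 2.94 and 4.54 in NG2. Its groups were well apart, with a log2 difference of 2.12 (interval 1.56 to 2.69) and an adjusted p of 0.00438. Plcd3, a phospholipase C that cleaves membrane phosphoinositides, read 3.7, 5.07 and 3.09 against 1.57, 0.638 and 0.786, a log2 difference of 2.07 (adjusted p 0.00185). A second well-detected probe of Plcd3 gave 0.56. Tmem14a, a small membrane protein, read 13.3, 7.19 and 10.7 against 6.69, 3.21 and 4.31, and its groups did not overlap (log2 difference 1.15, adjusted p 0.0011). Pcsk4, a proprotein convertase best known from germ cells, read 12, 7.07 and 9.27 against 5.06, 4.39 and 4.59 (log2 difference 0.98, adjusted p 0.00438). The O4 arrays, at 12.5, 8.6 and 10.4, were above the NG2/A2B5 array in each numeral for this gene. Emid1, a secreted EMI domain protein that is on the list of progenitor genes, had 1.34, 1.96 and 2.75 against 0.463, 0.147 and 0.662 (log2 difference 2.44, adjusted p 0.00438). The second probe of Emid1 lay near background, at a mean of 0.143, and had the opposite sign.

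**Figure D3:**
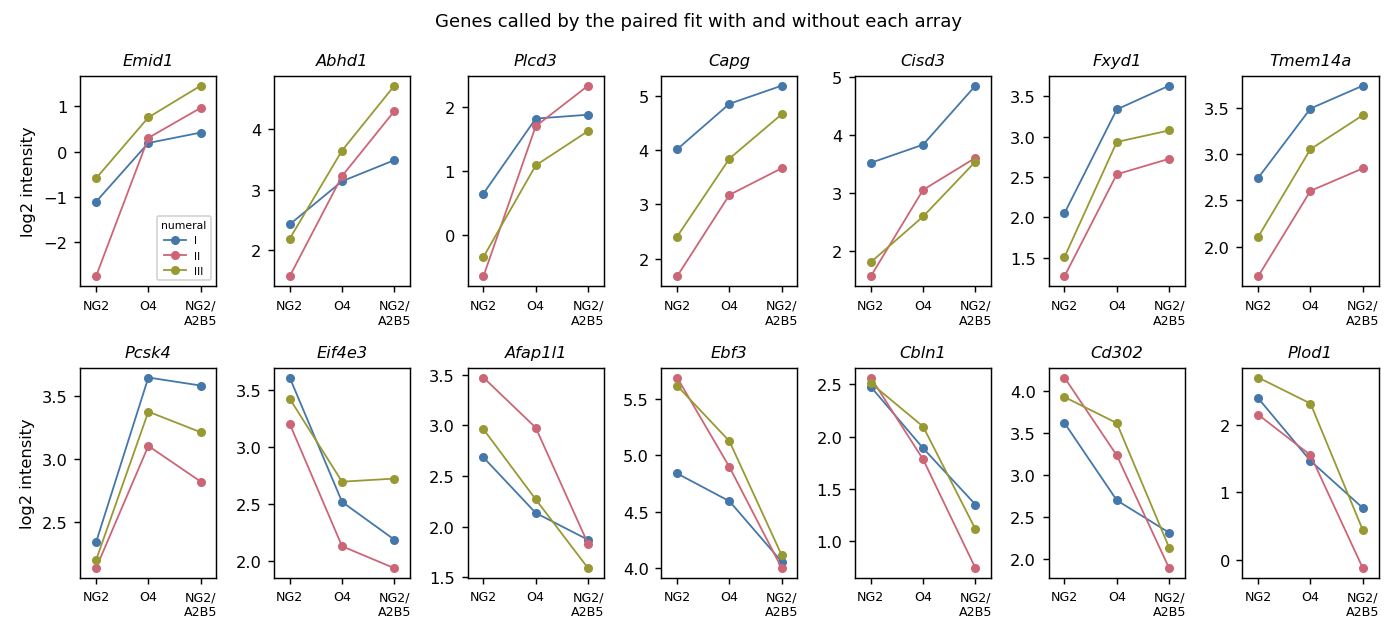
Log2 intensity of the 14 genes called by the paired fit with all arrays and with each array left out, by population, with lines joining the arrays of 1 numeral and a separate vertical scale for each gene. The 8 genes from Emid1 to Pcsk4 are higher in NG2/A2B5 than in NG2 within each numeral and the 6 from Eif4e3 to Plod1 are lower, with the O4 arrays in between for most of them.

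Plod1, Cd302 and Cbln1 had the smallest p-values on the lower side. Plod1, a lysyl hydroxylase that modifies collagen chains, read 1.7, 0.915 and 1.35 in NG2/A2B5 and 5.25, 4.43 and 6.49 in NG2. The groups lay far apart, with a log2 difference of -2.06 (interval -2.49 to -1.62) and an adjusted p of 0.00015. Lox, the lysyl oxidase that cross-links collagen and elastin, read 0.096, 0.434 and 0.149 against 0.56, 1.67 and 1.7, a log2 difference of -2.67 (adjusted p 0.00438). For Lox, 2 of the 3 NG2/A2B5 values were under their array's 25th percentile, so the size of this difference depends on values near background. The 31 well-detected collagens and collagen enzymes as a list were balanced, with 15 higher and 16 lower in the mean and a median of -0.01, and Plod1 and Lox were the 2 called. On the higher side Eln, encoding elastin, read 5.17, 1.92 and 3.52 against 3.32, 0.957 and 1.47 (log2 difference 0.97, adjusted p 0.0252). Fkbp10, a chaperone of collagen folding, read 10.4, 7.67 and 6.7 against 7.62, 3.52 and 3.08 (log2 difference 0.90, adjusted p 0.0308). The matrix protease Mmp11 read 8.83, 12 and 6.68 against 6.4, 7 and 3.35 (log2 difference 0.75, adjusted p 0.0274). The groups of Eln, Fkbp10 and Mmp11 overlapped and separated only within numerals. The secreted protease Htra1 was called lower, at 8.53, 12 and 12.5 against 15.2, 24.1 and 17.7 (log2 difference -0.78, adjusted p 0.0252). The summed intensity of 18 pericyte and fibroblast markers ranged over the NG2/A2B5 arrays from 58.2 to 66.4 and over the NG2 arrays from 52 to 78. Of the 18, 10 were not well detected, Dcn, Lum, Pdgfrb and Rgs5 among them. The 8 well-detected ones were Acta2, Col1a1, Col1a2, Fn1, Myh11, Notch3, Pdgfrl and Thy1. Of these, 5 were higher and 3 lower in the mean, with a median log2 difference of 0.06. Col1a1 had a mean intensity of 9.12 over the 9 arrays. Its groups overlapped, with a log2 difference of -0.16. Whether pericytes or fibroblasts have a part in the differences of the called genes above was not tested.

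Cbln1, cerebellin, a secreted organiser of synapses, had the smallest unadjusted p of the 14 genes in the fit without a block (6.14e-05, adjusted p 0.748 in limma). It read 2.55, 1.68 and 2.17 in NG2/A2B5 and 5.56, 5.91 and 5.7 in NG2. The NG2 arrays were within a narrow range, and none of the NG2/A2B5 arrays came near it. Its paired log2 difference was -1.44 (interval -1.81 to -1.08, adjusted p 0.000758), and the O4 arrays lay between at 3.7, 3.44 and 4.27. No other member of the list of 13 well-detected synapse organisers was called.

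Cd302, a C-type lectin receptor, read 4.98, 3.72 and 4.4 in NG2/A2B5 and 12.3, 17.9 and 15.2 in NG2 (log2 difference -1.79, interval -2.21 to -1.36, adjusted p 0.000529). Ebf3, a helix-loop-helix transcription factor of the early B cell factor family, read 16.6, 16 and 17.3 against 28.7, 51.7 and 49.2 (log2 difference -1.33, interval -1.67 to -0.98, adjusted p 0.000877). In both genes the groups were clearly apart, and for Ebf3 the 3 NG2/A2B5 arrays were nearly equal. Eif4e3, which binds the mRNA cap, read 4.56, 3.84 and 6.6 against 12.2, 9.19 and 10.7 (log2 difference -1.12, adjusted p 0.00438). Myef2, known as a repressor of Mbp transcription, had 21.7, 27.8 and 25.8 against 43.1, 45.5 and 39.7 (log2 difference -0.77, adjusted p 0.0112). Its O4 arrays read 21, 21.4 and 21.3, below each NG2/A2B5 array, and a second probe of Myef2 gave -0.14. Lpar1, a receptor for lysophosphatidic acid that rises as oligodendrocytes mature, read 3.11, 2.02 and 2.66 against 6.11, 3.89 and 4.95 (log2 difference -0.94, adjusted p 0.0159), while its other well-detected probe gave -0.16. Lpar1 was the only called gene of 22 well-detected myelin genes, 11 of which were higher and 11 lower in the mean, with a median of 0.02.

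Of the 14 genes, 3 were taken by the smallest p in the paired fit among those with a usable start. They were Plod1, called lower, and Cisd3 and Tmem14a, both called higher. The genome sequences before their starts are shown. Each is the 250 bases upstream of the RefSeq start in assembly GRCr8, 5′ to 3′ on the gene's strand: chr5:163650738-163650987 (minus strand) for Plod1, chr10:83175458-83175707 (plus strand) for Cisd3 and chr9:31136761-31137010 (plus strand) for Tmem14a. Capitals mark the GC box GGGCGG, the E-box CANNTG and the SOX core ACAAT on either strand.
Plod1: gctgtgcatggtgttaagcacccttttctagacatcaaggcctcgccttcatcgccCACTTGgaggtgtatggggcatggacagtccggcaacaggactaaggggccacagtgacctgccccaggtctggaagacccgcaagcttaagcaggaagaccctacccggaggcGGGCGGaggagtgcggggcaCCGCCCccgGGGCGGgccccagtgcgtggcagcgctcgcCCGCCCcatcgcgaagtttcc
Cisd3: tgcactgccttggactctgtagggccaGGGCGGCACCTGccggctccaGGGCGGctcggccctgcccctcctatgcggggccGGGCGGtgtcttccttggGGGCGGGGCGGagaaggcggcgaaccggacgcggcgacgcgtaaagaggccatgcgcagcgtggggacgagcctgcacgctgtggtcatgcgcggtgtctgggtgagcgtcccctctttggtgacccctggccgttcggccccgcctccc
Tmem14a: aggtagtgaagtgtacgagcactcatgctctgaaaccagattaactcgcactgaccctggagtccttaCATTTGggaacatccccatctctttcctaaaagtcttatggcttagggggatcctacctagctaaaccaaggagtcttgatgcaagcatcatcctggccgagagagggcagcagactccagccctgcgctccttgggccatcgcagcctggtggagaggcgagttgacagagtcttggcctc
Plod1 holds 4 GC boxes and Cisd3 holds 5, each with 1 E-box, while Tmem14a holds an E-box and no GC box. None of these windows holds the SOX core. A GC box stood in 60% of the 50 promoters of genes called higher that had a sequence, in 55% of the 20 of genes called lower, and in 59.1% of 7532 well-detected genes. The E-box was in 64%, 70% and 56.1% of the same sets and the SOX core in 14%, 20% and 17.6%, and over all 33469 promoters the shares were 30.5%, 65.5% and 30%. A match describes these letters only and not a bound site.

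Rflna, encoding refilin A, had a larger difference than any of the 14 genes but was not called by either fit. It read 24.1, 30.5 and 35.5 in NG2/A2B5, 8.9, 2.18 and 4.78 in NG2, and 20.6, 15.2 and 17 in O4. NG2/A2B5 was above NG2 on every array and by 1.43, 3.81 and 2.89 within the numerals. The log2 difference was 2.71 (interval 1.73 to 3.69), with an adjusted p of 0.0518 in the paired fit and 0.871 in limma without a block. The filamin it binds, Flna, read 61.5, 68 and 41.1 against 52.8, 83.2 and 46.9 (log2 difference -0.09, adjusted p 0.908), a sign that turned when NG2/A2B5 III or NG2 II was left out. Flnc read 1.03, 0.965 and 1.08 against 0.83, 0.929 and 0.944 (log2 difference 0.19). Rflnb, encoding refilin B, had no value on NG2/A2B5 II. It read 7.91 and 4.76 on the other 2 arrays and 6.92, 7.55 and 4.84 in NG2, and its sign differed between fits.

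Rflna shared its array pattern with most other genes that were higher by a large difference. Among well-detected genes 20 differed by more than 2 on the log2 scale, 15 higher and 5 lower. The 4 largest, Acsl3, Ifi35, Sphkap and Fndc3c1, each rest on 1 value at or below 0. Acsl3, a fatty acid activating enzyme, read 70.4 and 78 on NG2/A2B5 I and II and 84.5, 109 and 82 in NG2, but -0.13 on NG2/A2B5 III, and was not called. Without such values 14 genes were higher and 2, Lox and Plod1, were lower. In 13 of the 14 higher genes NG2 I was the highest of the NG2 arrays. The same held for 40 of the 67 genes called higher and for 17.1% of well-detected genes with no value at or below 0. The exception was Emid1, at 0.463, 0.147 and 0.662 in NG2 I, II and III. In 13 of the 14 the O4 mean lay between the other populations, and only 4, Emid1, Tmem69, Abhd1 and Plcd3, were called.

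Among the uncalled ones, chosen for display after their values were seen, was Bag3, a cochaperone of Hsp70 proteins. It read 22.2, 34.6 and 19.7 in NG2/A2B5 and 14.6, 2.1 and 1.63 in NG2 (log2 difference 2.75, adjusted p 0.336). Cdkn2b, encoding the cyclin-dependent kinase inhibitor p15, read 12.2, 39.3 and 13.2 against 8.29, 2.92 and 2.11 (log2 difference 2.32, adjusted p 0.368). Mtap, an enzyme of the methionine salvage pathway, read 33.6, 52.2 and 30.4 against 18.5, 2.77 and 3.65 (log2 difference 2.72, adjusted p 0.318). In all 3 genes NG2 I was several times above NG2 II and III, so that the difference was smallest in the numeral I pair. Mtap and Cdkn2b lie in the same stretch of chromosome, with Cdkn2a and 1 provisional gene between them in RefSeq. The gene between, Cdkn2a, read near background, with a mean intensity of 0.118. The zinc and cadmium transporter Slc39a8 read 4.83, 9.09 and 7.98 against 2.69, 0.532 and 1.16 (log2 difference 2.57, adjusted p 0.236).

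**Figure D4:**
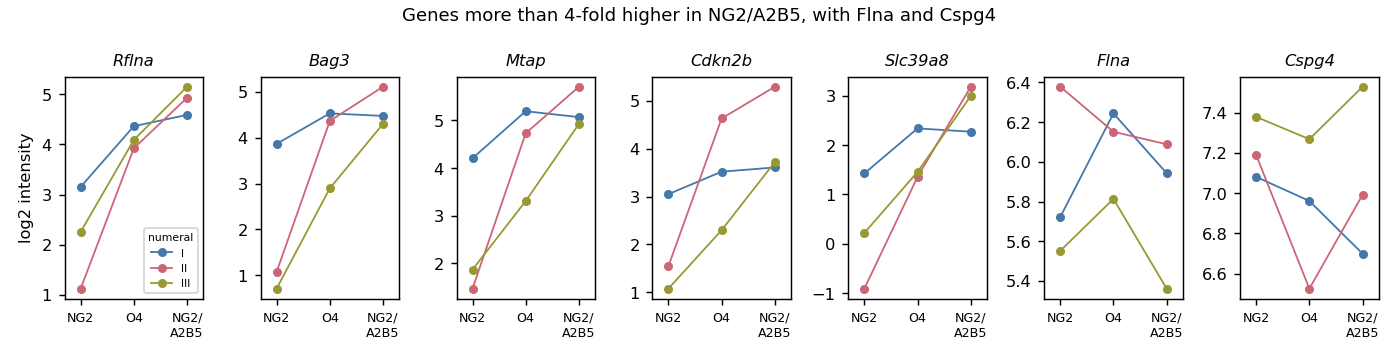
Log2 intensity by population of 5 genes with a log2 difference over 2 that the paired fit did not call (Rflna, Bag3, Mtap, Cdkn2b and Slc39a8), and of Flna and Cspg4, with lines joining the arrays of 1 numeral. NG2 I lies above NG2 II and III in the first 5 genes, and the NG2/A2B5 and NG2 arrays of Flna and Cspg4 overlap.

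Signalling genes were called in both directions. Bmp7, a bone morphogenetic protein, read 5.52, 5.51 and 4.37 in NG2/A2B5 and 2.82, 3.22 and 1.61 in NG2, with no overlap (log2 difference 1.06, interval 0.68 to 1.44, adjusted p 0.0101). Id2, a target of BMP signalling that holds back differentiation, read 5.89, 4.81 and 5.05 against 9.22, 9.25 and 6.54. Its groups also did not overlap, in the other direction, but Id2 was not called (log2 difference -0.65, adjusted p 0.268). The 34 well-detected genes of the Wnt and BMP pathways had a median of 0.04, with Bmp7 the only call. The tyrosine kinase Jak3 read 3.58, 1.46 and 4.83 against 2.19, 0.584 and 2.35 (log2 difference 1.03, adjusted p 0.0189), and its groups separated only within numerals. Ccl2, a chemokine that attracts monocytes, was called lower at 9.03, 5.08 and 2.3 against 14.8, 14.4 and 4.73 (log2 difference -1.09, adjusted p 0.00649). Here too the groups overlapped. Microglia markers summed to 12.5 to 13.6 on the NG2/A2B5 arrays and to 13.2 to 14.5 on those of NG2, and their part in the Ccl2 difference was not tested.

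Among genes under genomic imprinting, which are expressed from 1 parental copy, Ndn and Snrpn were called higher. Ndn, encoding necdin, read 85, 192 and 239 in NG2/A2B5 and 65.5, 111 and 110 in NG2 (log2 difference 0.76, adjusted p 0.0252), with overlap between the groups. Snrpn, a component of the splicing machinery, read 85.3, 120 and 93.4 against 60.4, 79.9 and 54.8 (log2 difference 0.62, adjusted p 0.0359), with none. A second probe of Snrpn gave 0.21. The de novo DNA methyltransferase Dnmt3a read 5.12, 5.62 and 3.7 against 2.24, 3.83 and 1.63 (log2 difference 0.98, adjusted p 0.0252). Zfp57, a zinc finger protein that keeps imprints methylated, was called lower at 0.869, 1.42 and 1.39 against 2.93, 2.63 and 2.81 (log2 difference -1.22, adjusted p 0.0198). This grouping was made after the values were seen and no list of imprinted genes was examined.

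Aldoc and Epas1 of the list of glycolysis and hypoxia response genes, and Ifi30 of the lysosome list, were called higher, as were 67 of all 94 called genes. Aldoc, the brain form of aldolase, read 46.5, 31.7 and 61 against 31.6, 15.1 and 37.2 (log2 difference 0.78, adjusted p 0.019), and Epas1, the hypoxia-inducible factor HIF-2 alpha, read 27.5, 40.2 and 54.3 against 21.8, 22 and 31.8 (log2 difference 0.66, adjusted p 0.0453). Of the 32 well-detected members of their list 19 were higher in the mean, with a median of 0.12. Aldoc is also on the astrocyte list, whose sum was 181 to 260 on the NG2/A2B5 arrays against 165 to 187 on the NG2 arrays. This sum includes Aldoc itself, so it is not separate from the Aldoc values. Over the 7 well-detected members the median log2 difference was 0.06, at -0.08, -0.26 and 0.45 within numerals I, II and III. The part of astrocytes was not tested. Hk1, the hexokinase that starts glycolysis, read 100, 104 and 90.5 against 69.5, 66.4 and 70.7. It was not called (log2 difference 0.51, adjusted p 0.097), but its groups did not overlap. Of its 18 well-detected probes 14 were higher in the mean, between -0.13 and 0.65 with a median of 0.36. Many of these probes came in sets of near-equal intensity, such as those with means of 41.3, 41.4, 40.4 and 40.1. The probe count is therefore not a count of independent readings. Ifi30, the thiol reductase of lysosomes that is induced by interferon, read 6.04, 7.42 and 5.23 against 2.34, 1.98 and 3.06 (log2 difference 1.35, interval 0.91 to 1.79, adjusted p 0.00438). It was the only call among 41 well-detected lysosome and autophagy genes, 27 of which were higher and 14 lower in the mean with a median of 0.10. The lysosomal protease Ctsd, at 67, 51.9 and 88 against 45.6, 38.6 and 53, and the autophagosome protein Map1lc3b, at 81.2, 68 and 104 against 60.8, 61.3 and 55.8, were higher in each numeral without a call (adjusted p 0.063 and 0.193). Bst2, another interferon-induced gene, was called higher near the detection limit, at 1.26, 0.76 and 0.506 against 0.615, 0.132 and 0.0951 (adjusted p 0.0274).

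Gene lists as wholes shifted by small amounts. Over all well-detected genes the median log2 difference was -0.01, with 48.1% of genes higher, and the medians within numerals I, II and III were 0.02, -0.09 and 0.05. Of 39 cell cycle genes 11 were higher and 28 lower, with a median of -0.11 and no call. Their medians within the numerals were 0.05, -0.13 and -0.10. Cytosolic ribosomal protein genes had 9 of 38 higher and a median of -0.08, but this came from numeral II, at -0.41, against 0.12 and 0.04 in I and III. Immediate early genes had 5 of 24 higher, with a median of -0.12, at -0.27, -0.27 and 0.11 within the numerals. Splicing and hnRNP genes had 16 of 54 higher with a median of -0.07, and Snrpn was their only call. On the other side the proteasome had 28 of 42 higher and a median of 0.13, at 0.27, -0.17 and 0.17 within the numerals. Receptors of growth factors with the IGF system had 14 of 18 higher and a median of 0.10, positive in each numeral at 0.18, 0.10 and 0.16, with no call. Premyelinating genes had 3 of 12 higher and a median of -0.15, and progenitor genes 7 of 17 with a median of -0.04 and Emid1 as the one call. Astrocyte and neuron lists had medians of 0.06 and 0.16, and both were positive in numeral III only. The summed neuron markers were 62.8 to 93.3 in NG2/A2B5 against 79 to 101 in NG2, so the sum and the median differed in sign. Progenitor genes summed to 744 to 1125 against 895 to 1156, and myelin genes to 496 to 732 against 538 to 718.

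**Figure D5:**
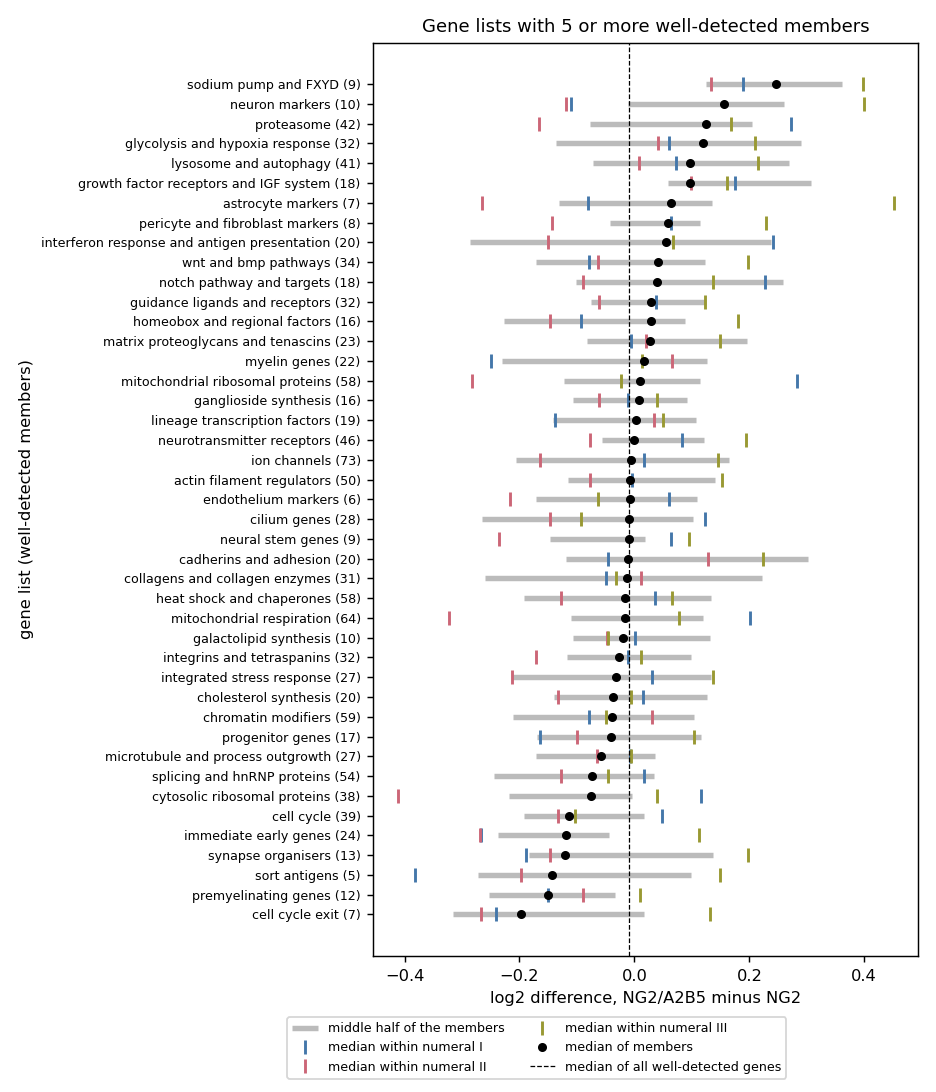
Log2 difference, NG2/A2B5 minus NG2, for 43 gene lists with 5 or more well-detected members: black points are the median of the members' differences, grey bars run from the 25th to the 75th percentile of the members, and coloured ticks are the medians within numerals I, II and III. The medians of most lists lie between -0.2 and 0.2, and ticks of different numerals fall on both sides of the dashed median of all well-detected genes for many lists.

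The O4 values of the called genes are given as a description. Of the 67 genes called higher, the O4 mean lay between the NG2 and NG2/A2B5 means for 53 and was nearer to NG2/A2B5 for 55. Of the 27 called lower it lay between for 26 and was nearer to NG2/A2B5 for 11. The O4 mean lay between for 28.3% of 9022 well-detected genes and for 54.3% of the 891 whose NG2/A2B5 and NG2 arrays did not overlap. A gene chosen for a gap between 2 populations leaves more room for the third to fall between them, so nothing is read from these counts. Among all well-detected genes, the called ones included, groups did not overlap in 464 well-detected genes higher in NG2/A2B5 (5.14%) and 427 lower (4.73%), and 41 of the 67 and 23 of the 27 called genes are among these. The sign was the same in all 3 numerals for 1447 genes on the higher side (16%) and 1547 on the lower (17.1%). A log2 difference over 1 without a block was measured in 78 genes on the higher side (0.864%) and 39 on the lower (0.432%). By the paired fit's own estimate, 30 of the genes called higher and 14 of those called lower differed by more than 1. The estimates part for Nfatc2, which had a missing value, at -1.09 in the paired fit and -0.98 without a block.

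Where a called gene had a second well-detected probe, the probes often differed in size. Of 24 such genes 19 had the same sign on the other probe and 5 the opposite, and in 10 the other probe gave at least 0.5 of the difference. Over all 1889 genes with 2 well-detected probes, 57.8% had the same sign on both.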

How the data were processed

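The deposited file gives linear intensities of 35129 probes. Per the labels' protocols, the authors amplified total RNA (RNA integrity number of at least 8.7), labelled it and used spiked controls to normalize. The sources used here name no scanner or software. Values coded -9999 were missing (154 to 203 per compared array). Values at or below 0 took their array's smallest positive value before log2. Probes with 1 gene symbol (16865) were kept, those with several (165) or none (18099) were left out, and 16836 identifiers matched RefSeq GRCr8. A gene was read from the probe with the highest mean. The main test was limma 3.58.1 (lmFit, eBayes, two-sided) on 9 arrays without a block, the paired fit an alternative. Same-numbered arrays were taken as pairs in the paired fit. Their correlations were 0.285 to 0.566, but no label ties a numeral to a culture. Named genes are the 15 per direction with the smallest p without overlap in the main fit, or with 1 sign in each numeral in the paired fit, 3 per list, and all refilins, filamins and sort antigens. Others were chosen after their values were seen. The members and 45 lists were chosen with earlier results of these data known. The number of arrays limits precision. Scripts were tested on simulated data.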

Additional observations from a re-analysis of the deposited data

How the results depend on the processing

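Calls depended on the fit. Without a block 0 genes were called higher and 0 lower, and the replicate block with trend and robust estimates gave 67 and 27, or 99 and 46 over genes with a mean intensity over 0.5 alone. In the fit without a block, the mean of a gene's probes called 1 gene higher (Rnf26), all probes 1 unnamed probe, and leaving out 1 array 0 to 1 higher and 0 to 3 lower. Starting from the paired fit, a block without trend and robust estimates called 0 and 0, no block with them 0 and 0, and a random block 8 and 7. A minimum mean intensity of 1 gave 103 and 56, and of 0.5 gave 46 lower. A floor at the 25th percentile gave 3 and 2, and the mean of a gene's probes 14 and 7. Leaving out 1 array gave 10 to 99 higher and 8 to 47 lower. The cause of these changes was not tested.

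Of 2107 values of 92 named genes under other settings, 1974 kept sign and side of the threshold in the fit without a block, 116 passed it and 17 turned sign, in 8 genes. Settings that change only the block, the variance estimates, the O4 arrays or the genes tested cannot turn the sign of a gene without missing values. The count of kept signs therefore overstates how far the signs were tried. The mean of a gene's probes turned Bbs2 to 0.16, Emid1 to -0.44, Extl1 to -0.30 and Samd4b to -1.06. Leaving out 1 array moved Cspg4 between -0.37 and 0.044, Flna between -0.25 and 0.16, Rflnb between -0.41 and 0.32 and Ugt8 between -0.16 and 0.27. Rflnb was 0.14 with a replicate block, with or without trend, robust estimates or the intensity minimum, 0.036 with a random block and 0.085 with a block on the 6 arrays compared. Of 630 list medians under other settings 583 stayed within the spread between numerals. Leaving out an O4 array or keeping only the 6 arrays compared could not move these medians, so the count overstates their stability. Low signal over background limits Lox, Emid1, Mical1 and Bst2.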

Other observations

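Other called genes fall in groups that the comparisons above did not describe, and each was chosen for display after its values were seen. Genes of cell processes and neuronal differentiation were called on both sides. Tppp3, a tubulin polymerization-promoting protein, read 17.5, 10.9 and 13.4 in NG2/A2B5 arrays I, II and III and 10.2, 3.71 and 6.8 in NG2 (log2 difference 1.10, adjusted p 0.00438 in limma's paired fit). Cntnap1, the contactin-associated protein Caspr of paranodal junctions, read 6.99, 3.87 and 4.57 against 5.5, 1.53 and 2.03 (log2 difference 0.95, adjusted p 0.0252). Tagln3, an actin-binding protein of neurons, was lower, at 0.722, 1.23 and 1.71 against 1.97, 2.81 and 3.14 (log2 difference -1.17, adjusted p 0.0141).

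Genes with roles in immunity were also called on both sides. Cd83, a surface glycoprotein of activated dendritic and B cells, read 4.98, 3.27 and 4.03 in NG2/A2B5 and 6.41, 8.32 and 7.84 in NG2 (log2 difference -0.89, adjusted p 0.0317). Entpd1, the ectonucleotidase CD39, read 5.94, 10.1 and 12.7 against 14, 15.9 and 18.6 (log2 difference -0.82, adjusted p 0.0295). Tnfrsf9, a receptor of the tumour necrosis factor family, was higher within each numeral, at 9.81, 3.6 and 3.68 against 6.13, 1.65 and 2.4 (log2 difference 0.81, adjusted p 0.0271). Of 16 microglia markers 3 were well detected, Cd68, Itgam and Laptm5. Cd68 read 4.95, 6.4 and 4.38 in NG2/A2B5 and 5.3, 4.83 and 6.93 in NG2, and Itgam 5.42, 3.88 and 4.11 against 4.99, 5.18 and 4.08. The groups of both genes overlapped, the other 13 markers were not well detected, and the part of such cells in the differences above was not tested.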
